A study of Homo sapiens with 8 samples.

Results

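The genes described here make, carry and break down retinoic acid, the vitamin A derivative that patterns the hindbrain and spinal cord. They are RDH10, ALDH1A2 and ALDH1A3 for synthesis, DHRS3 for the reverse of its opening step, CRABP1 and CRABP2 for carriage, and CYP26A1, CYP26B1 and CYP26C1 for breakdown. They were taken by name from a table of gene expression, where all 9 were found among 35940 gene symbols. The study followed wild-type cells of ESI017, an established human embryonic stem cell line, on the way to a posterior neural fate, and its title places the work on WNT signalling and anterior-posterior patterning. Cells spent 24 h in mTeSR1, a stem cell medium, with ROCK inhibitor and were then switched to the neural medium N2B27, in which SB was at 10 µM and LDN at 100 nM. The WNT ligand WNT3A joined them from 34 h on, at 300 ng/mL. RNA was taken at 34, 42, 50 and 72 h, with 2 libraries at each time point, 1 from each of 2 batches, and the labels name no added retinoid. There was no arm without WNT3A, so time in culture and WNT3A cannot be told apart, and the labels do not say whether the 34 h cells were taken just before or just after the addition. All cells came from 1 line.

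Retinol that enters a cell is oxidised to retinaldehyde by RDH10, and DHRS3 runs that step in reverse. ALDH1A2 and ALDH1A3 turn retinaldehyde into retinoic acid, CRABP1 and CRABP2 carry it in the cytoplasm, and the CYP26 enzymes oxidise it for removal. In vertebrate embryos, retinoic acid made by the paraxial mesoderm reaches the hindbrain, where CYP26 enzymes shape how far it acts, and CYP26A1 is a classical target of retinoic acid through its receptors.

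Expression was given as TPM, the length-corrected share of a gene in all transcripts of its library, so levels may be compared between genes. Read depth was not given with these values, and precision is limited by 2 libraries per time point. The 8 libraries were alike in breadth, with 13860 to 14004 symbols at or above 1 TPM and 8.70% to 11.2% of all TPM in mitochondrial genes. The summed level of 6 pluripotency markers went from between 3415 and 3440 TPM at 34 h to between 1863 and 1950 TPM at 72 h, and that of 6 neural progenitor markers from 381 to 400 TPM to 691 to 741 TPM. Both sums hold SOX2, which was at 224 and 211 TPM at 34 h and at 348 and 333 TPM at 72 h. The pluripotency markers went different ways. LIN28A was at 908 and 897 TPM at 34 h and at 1078 and 970 TPM at 72 h. TDGF1 went from 743 and 785 TPM to 2.94 and 6.13 TPM, and POU5F1 from 1165 and 1152 TPM to 354 and 388 TPM. DPPA4 and NANOG were also lower at 72 h than at 34 h. The 6 hindbrain markers summed to 2.07 to 2.94 TPM at 34 h, 87.7 to 104 at 42 h, 99.4 to 135 at 50 h and 184 TPM in both libraries at 72 h. All 6 pluripotency markers were still at or above 1 TPM at 50 h, and 5 were at 72 h. Among markers of other cells, the 6 for endoderm summed to 12.2 to 13.6 TPM at 34 h and 0.598 to 0.961 TPM at 72 h, with SOX17 listed at 0 throughout. Nearly all of this sum at 34 h was FOXA2, at 11.9 and 13.4 TPM then and at 0.575 and 0.866 TPM at 72 h. Each other endoderm marker was at or below 0.356 TPM in every library, so the fall is that of 1 gene. The 6 neural crest markers summed to 20.6 to 24.0 TPM at 34 h, 31.6 to 34.7 at 42 h, 32.6 to 33.3 at 50 h and 28.4 to 30.2 TPM at 72 h. SOX9, PAX3 and SNAI2 were higher at 72 h than at 34 h, FOXD3 and TFAP2A were lower, and the libraries of SOX10 overlapped. SOX9 was the largest part of the sum at each time point. The 6 markers for surface ectoderm summed to 12.4 to 19.9 TPM at 34 h, 10.6 to 12.0 at 42 h, 14.5 to 15.3 at 50 h and 8.29 to 11.6 TPM at 72 h. These sums change over the same time points as the genes below, and their part in those results was not tested.

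Of the 9 genes, 8 reached 1 TPM in at least 2 libraries and were tested. CYP26B1 did not. Changes were tested with limma on log2(TPM + 1) in 1 fit of all 8 libraries, with p-values adjusted over 14908 genes by the Benjamini-Hochberg method, and a gene is called raised or lowered here where the adjusted p was under 0.05. Fold changes on this scale understate the change of genes with low levels. At 42 h against 34 h, none of the 8 was raised and 1 was lowered, beside 1.78% raised and 0.792% lowered among all tested genes. At 50 h against 34 h, 1 was raised and 3 were lowered, against 3.52% and 2.74% of all genes. At 72 h against 34 h, 2 were raised and 1 was lowered, against 12.7% and 11.3%. Between 50 h and 72 h, 3 were raised and 1 was lowered, against 2.92% and 4.41%. Between 42 h and 50 h none was called in either direction, where 0.0604% of genes were raised and 0.0335% lowered, and 3 of the 8 and 9.35% of all tested genes had an unadjusted limma p under 0.05. The median log2 changes of the 8 genes were -0.20, 0.01, 0.11, -0.0018 and 0.07 in the order just given, beside 0.01, 0.04, 0.06, 0.01 and 0.03 for all tested genes. CYP26C1 passed the filter only through the 72 h libraries and ALDH1A2 only through those at 42 and 50 h, where they were high, so these counts and medians are a description and support no statement about the 8 genes. The comparisons with 34 h share the 34 h libraries. With 2 libraries on each side, the smallest p of an exact permutation test is 0.333, and none was run.

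**Figure D1:**
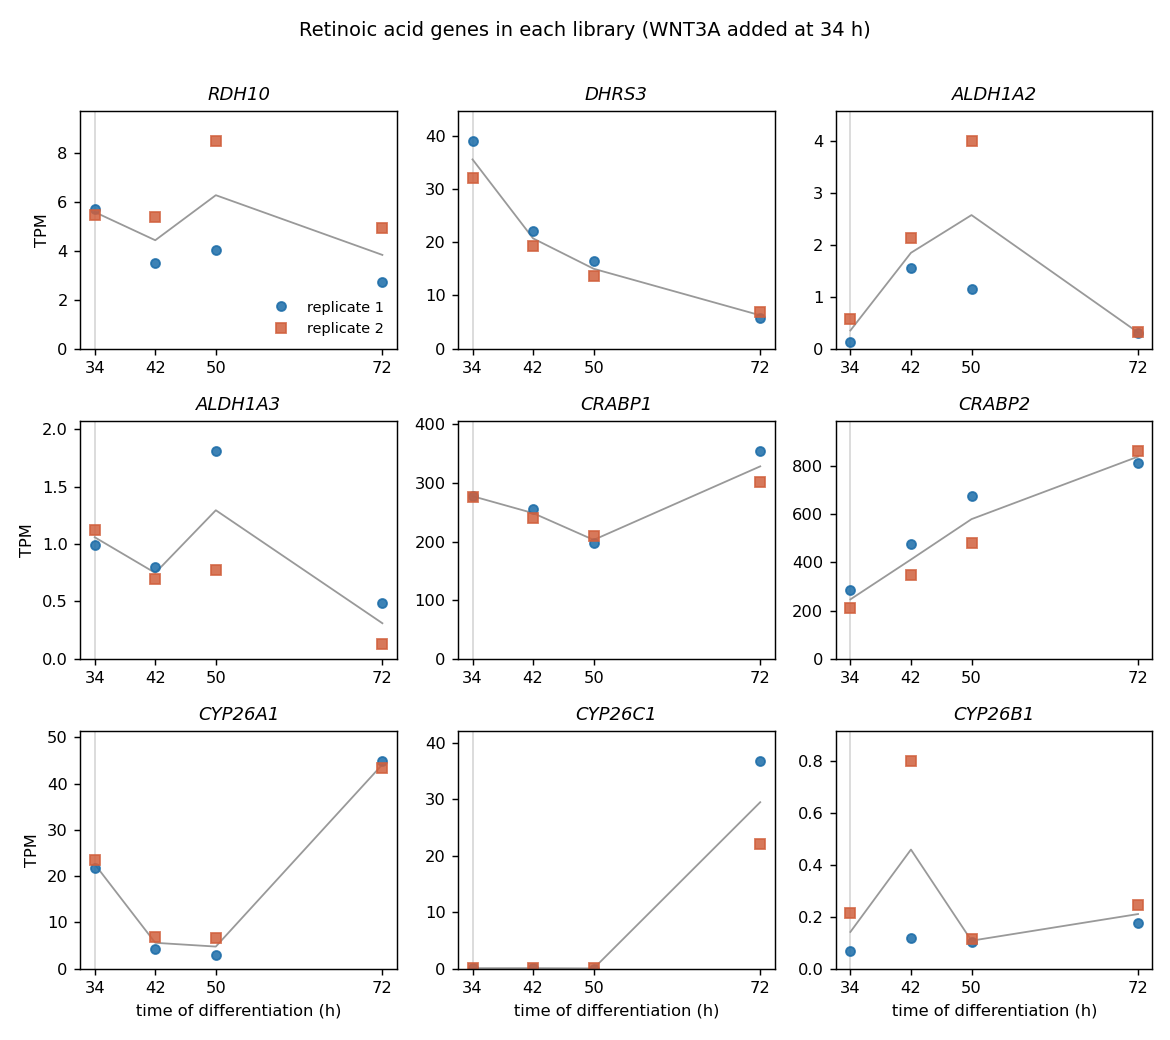
Level of each of the 9 genes (TPM, vertical axis, from 0, scaled per gene) against time of differentiation (h). Circles are replicate 1, squares replicate 2, lines join the means of 2 libraries, and the grey vertical line marks WNT3A addition. CYP26A1 dips at 42 and 50 h and is highest at 72 h, CYP26C1 is above 1 TPM at 72 h only, DHRS3 declines and CRABP2 climbs.

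The largest changes among the 8 tested genes were those of CYP26A1 and CYP26C1, both breakdown enzymes. CYP26A1 and CYP26C1 lie next to each other on chromosome 10 in the same orientation. In GENCODE release 29 on GRCh38, CYP26C1 spans chr10:93060808-93069536 and CYP26A1 spans chr10:93073475-93077890, with 3938 bases between them. The noncoding gene AL358613.3 (chr10:93063646-93077424) overlaps both on the same strand. How reads of shared stretches were divided is not given in the sources used here. CYP26B1 lies apart, on chromosome 2 (chr2:72129238-72148038, minus strand).

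Because this neighbouring pair was raised together from 50 to 72 h, the sequence just before each start is shown, from RefSeq windows on GRCh38.p14 reaching from 250 bases before a start to 50 after it, plus strand, 5′ to 3′. The capitals in the first line mark a direct repeat of the 6-base retinoic acid receptor site with a spacer of 5 bases (DR5), read on the minus strand, and those in the other lines mark TATAAA.
CYP26A1, chr10:93073797-93073826: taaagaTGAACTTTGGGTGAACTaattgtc
CYP26A1, chr10:93073835-93073889: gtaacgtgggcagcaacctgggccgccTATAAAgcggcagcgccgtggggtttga
CYP26C1, chr10:93060548-93060797: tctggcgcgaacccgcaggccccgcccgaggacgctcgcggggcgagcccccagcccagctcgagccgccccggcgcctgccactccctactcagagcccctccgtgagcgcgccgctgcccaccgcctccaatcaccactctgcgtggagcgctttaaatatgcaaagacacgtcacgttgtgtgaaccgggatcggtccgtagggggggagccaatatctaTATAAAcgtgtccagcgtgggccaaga

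The CYP26A1 repeat lies at -90 to -74 from the downstream one of the gene's RefSeq starts (93073893), inside the first exon (chr10:93073475-93073834) of a longer GENCODE transcript that begins upstream. The downstream start in GENCODE is 93073890, 3 bases before that of RefSeq, and the second printed line ends just before it. The CYP26C1 line ends just before the RefSeq start. DR5 was searched on both strands as 2 copies, in 1 direction and 5 bases apart, of any of the sites AGTTCA, known from CYP26A1 itself, AGGTCA, the consensus, GGTTCA, known from RARB, and GGGTCA. It was found in 31 of 35116 RefSeq promoter windows (0.0883%) and in 1 of the 12 windows of these genes, that of CYP26A1. Both copies in the CYP26A1 repeat read AGTTCA, a site known from this gene and made part of the search. That match was therefore fixed in advance, and its share of the 12 windows is not to be set against that of all windows. The same sites 2 bases apart (DR2, 0.0399% of windows) or 1 base apart (DR1, 0.131%), and the TCF/LEF sequences CTTTGAA or CTTTGAT (6.86%), were in none of the 12. TATAAA on the gene's strand, starting 40 to 20 bases before the start, was in 2.30% of all windows and in 2 of the 12, those of CYP26A1 and CYP26C1. This last search was added after the sequences had been read. The 12 windows belong to 8 of the 9 genes (all but RDH10). Each match is a description of letters in the window.

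CYP26A1 was lowered at 42 and 50 h against 34 h and raised from 50 to 72 h. Its level was 21.7 and 23.5 TPM at 34 h, 4.26 and 6.96 at 42 h, 2.92 and 6.67 at 50 h, then 44.9 and 43.3 TPM at 72 h. The 42 and 50 h libraries overlapped each other, and all 4 lay below both 34 h libraries and both 72 h libraries. In the order of symbols by TPM, CYP26A1 stood at places 5992 and 5591 at 34 h, between 9950 and 11904 at 42 and 50 h, and at 3451 and 3582 at 72 h. In bulk RNA, fewer cells with a transcript and less transcript per cell cannot be told apart.

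The mean of CYP26A1 was 22.6 ± 1.29 TPM at 34 h and, 4.03-fold lower, 5.61 ± 1.91 TPM at 42 h (SD, n = 2 throughout). The log2 change was -1.86 ± 0.31 (SE), with a limma adjusted p of 0.0185, and it was -2.11 in batch 1 and -1.62 in batch 2. This call was lost without either 34 h library (adjusted p 0.103 and 0.139), without 42 h replicate 1 (0.120) and with no filter on low values (0.0773). At 50 h the mean was 4.80 ± 2.65 TPM, and the change from 34 h was -2.10 ± 0.31 (adjusted p 0.00582; 0.0520 without 34 h replicate 2). From 42 to 50 h the change was -0.24, with a 95% interval for that gene alone of -0.95 to 0.47 and an adjusted p of 0.870, so the 2 low time points were not separated.

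From 50 h to 72 h CYP26A1 rose 9.20-fold in mean TPM, to 44.1 ± 1.2 TPM. The log2 change was 3.04 ± 0.31 (adjusted p 0.00113), 3.55 in batch 1 and 2.53 in batch 2, and it was called under all 18 other settings and left-out libraries. Against 34 h, the 72 h mean was 1.95-fold higher and the 72 h libraries lay above both 34 h libraries. That log2 change, 0.94 ± 0.31 with an interval of 0.23 to 1.65, had an adjusted p of 0.0604, and of 0.0307 with the batch in the model. It also passed with the 2 time points fitted alone (0.00592), without either 50 h library (0.0164 and 0.0170) and among genes with a mean of at least 5 TPM (0.0464).

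CYP26C1 was close to 0 until 72 h. It stood at 0.154 and 0.0634 TPM at 34 h, 0.127 and 0.0925 TPM at 42 h, listed at 0 and 0.131 TPM at 50 h, then 36.8 and 22.1 TPM at 72 h. Both 72 h libraries stood above all 6 earlier ones, which overlapped one another. Its place among symbols by TPM went from between 16884 and 18401 in those 6 libraries to 4128 and 6078 at 72 h.

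Against 34 h, the 72 h log2 change of CYP26C1 was 4.74 ± 0.28, with a limma adjusted p of 1.91e-05, 5.04 in batch 1 and 4.44 in batch 2. From 50 h to 72 h it was 4.80 ± 0.28 (adjusted p 0.00012), and both changes were called under all 18 other settings and left-out libraries. The 72 h mean was 29.5 ± 10.4 TPM. With a pseudocount of 1 these changes are set mainly by the 72 h level, since the earlier levels lie far below 1 TPM. In the earlier libraries the 2 neighbouring genes were far apart, with CYP26A1 at 21.7 TPM or more at 34 h where CYP26C1 was at 0.154 TPM or less.

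CYP26B1, the third enzyme of the family, remained low. It was at 0.0670 and 0.216 TPM at 34 h, 0.117 and 0.799 at 42 h, 0.102 and 0.114 at 50 h, then 0.175 and 0.245 TPM at 72 h. Its highest library was 42 h replicate 2, and the 2 replicates at that time point were further apart than the means of any 2 time points. It was not tested because it never reached 1 TPM.

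The make-up of the CYP26 transcripts therefore differed between the time points. CYP26A1 made up 99.0% and 98.8% of the summed CYP26 TPM at 34 h, and 88.6% to 96.6% at 42 and 50 h. At 72 h CYP26A1 made up 54.8% and 65.9% and CYP26C1 44.9% and 33.7%. The summed level of the 3 genes was 21.9 and 23.8 TPM at 34 h, 4.51 and 7.85 at 42 h, 3.02 and 6.92 at 50 h, then 81.9 and 65.7 TPM at 72 h. CYP26A1 remained the higher of the pair in both 72 h libraries.

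**Figure D2:**
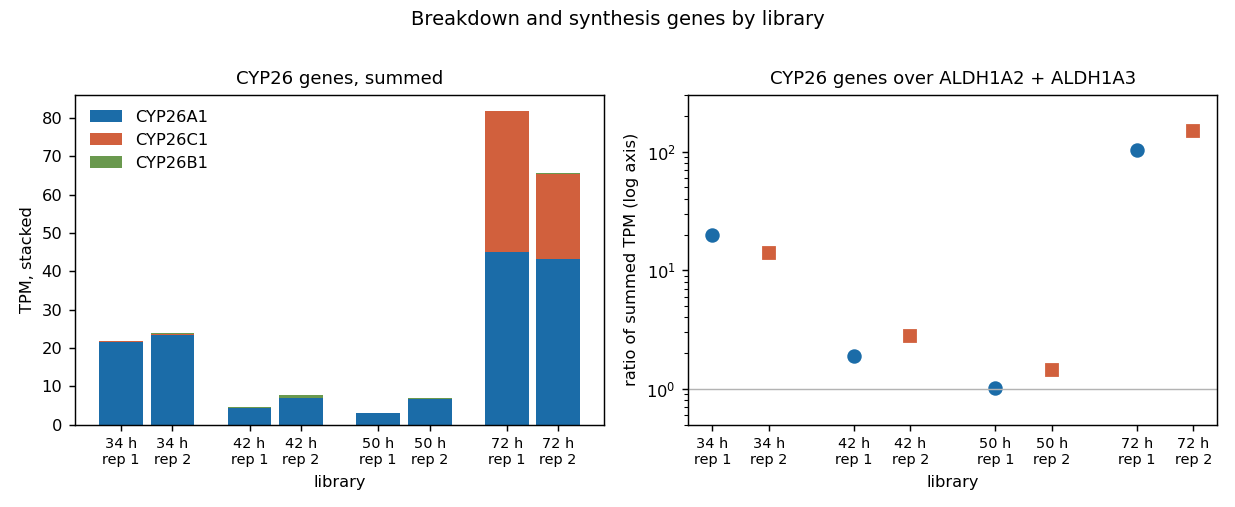
Left, TPM of CYP26A1, CYP26C1 and CYP26B1 stacked for each of the 8 libraries (bars from 0). Right, the summed TPM of the 3 CYP26 genes divided by the summed TPM of ALDH1A2 and ALDH1A3 in each library, on a log axis with a grey line at 1 (circles replicate 1, squares replicate 2). CYP26C1 makes up a visible share of the sum at 72 h only, and the ratio is lowest at 50 h (1.02 and 1.45) and highest at 72 h (102 and 148).

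Among the genes that set the supply of retinoic acid, DHRS3 was lowered at 50 and 72 h against 34 h and from 50 to 72 h, while RDH10, ALDH1A2 and ALDH1A3 did not pass the test in any comparison. DHRS3, the retinaldehyde reductase (chr1:12567910-12617731, minus strand), was at 39.0 and 32.0 TPM at 34 h, 22.1 and 19.3 at 42 h, 16.4 and 13.6 at 50 h, then 5.73 and 6.81 TPM at 72 h. No 2 time points overlapped, and each was lower than the one before. The mean at 34 h, 35.5 ± 4.98 TPM, was 5.66-fold above that at 72 h, 6.27 ± 0.761 TPM.

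Against 34 h, the 72 h log2 change of DHRS3 was -2.33 ± 0.16, with a limma adjusted p of 4.70e-05, -2.57 in batch 1 and -2.08 in batch 2, and it was called under all 18 other settings and left-out libraries. By 50 h the change was -1.19 ± 0.16 (adjusted p 0.00435), also called under all 18. By 42 h it was -0.75 ± 0.16 with an adjusted p of 0.0607, not called, and between 0.0439 and 0.322 under the alternatives. It was -0.44 from 42 to 50 h (adjusted p 0.458). From 50 to 72 h it was -1.14 ± 0.16 (adjusted p 0.00576), lost without 72 h replicate 1 (0.0613) and with those 2 time points fitted alone (0.0512). The neighbouring time points 34 and 42 h, and 42 and 50 h, were thus not separated by the test although their libraries did not overlap.

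RDH10, the retinol dehydrogenase of the forward step (chr8:73294612-73325281, plus strand), was at 5.71 and 5.48 TPM at 34 h, 3.49 and 5.39 at 42 h, 4.05 and 8.52 at 50 h, then 2.75 and 4.93 TPM at 72 h. The 2 libraries of each later time point were far apart, with replicate 2 the higher at 42, 50 and 72 h. Both 34 h libraries were above both 42 h and both 72 h libraries, and the other pairs of time points overlapped. The log2 change from 34 to 72 h was -0.48, with an interval of -1.28 to 0.31 and an adjusted p of 0.348. The interval holds changes in either direction. The start of RDH10 overlaps RPL7 on the other strand, a ribosomal protein gene listed at 2966 to 3425 TPM, and it is not stated whether reads were counted by strand, so the level of RDH10 is uncertain.

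DHRS3 stood 6.84 and 5.84 times above RDH10 at 34 h. The ratio was 6.32 and 3.59 at 42 h, 4.05 and 1.59 at 50 h, then 2.09 and 1.38 at 72 h. DHRS3 remained the higher of these opposing enzymes in every library.

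ALDH1A2, the main retinaldehyde dehydrogenase of the embryonic trunk (chr15:57953424-58497866, minus strand), was at 0.121 and 0.581 TPM at 34 h, 1.56 and 2.13 at 42 h, 1.14 and 4.0 at 50 h, then 0.312 and 0.313 TPM at 72 h. The 4 libraries of 42 and 50 h lay above the other 4. The log2 change was 1.09 ± 0.40 from 34 to 42 h (interval 0.16 to 2.02, adjusted p 0.274), 1.30 ± 0.40 from 34 to 50 h (interval 0.37 to 2.23, adjusted p 0.113) and -1.32 ± 0.40 from 50 to 72 h (interval -2.25 to -0.39, adjusted p 0.0963). None passed the adjusted threshold over 14908 genes. Without 50 h replicate 1, the lower of its pair, the changes from 34 to 50 h and from 50 to 72 h were 1.91 and -1.93. Over all alternatives they ran from 0.68 to 2.54 and from -2.45 to -0.71.

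Paraxial mesoderm is the embryonic tissue best known for ALDH1A2. The summed level of 8 paraxial mesoderm markers was 4.99 to 5.63 TPM at 34 h, 3.41 to 5.19 TPM at 42 h, 5.58 to 6.57 at 50 h and 4.99 to 5.63 at 72 h. Of these ranges, those of 42 and 50 h did not overlap, with 50 h the higher. TCF15 was the 1 marker that passed the filter, with no call in any comparison. MSGN1, a defining marker, was listed at 0 in all 8 libraries, and TBX6 was between 0.411 and 1.07 TPM. The part of these markers in the ALDH1A2 level was not tested.

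ALDH1A3, known from the developing eye and forebrain (chr15:100877714-100916626, plus strand), was at 0.994 and 1.12 TPM at 34 h, 0.804 and 0.693 at 42 h, 1.81 and 0.775 at 50 h, then 0.488 and 0.131 TPM at 72 h. Both 72 h libraries were below the other 6. Both 34 h libraries were above both 42 h libraries, and those at 50 h overlapped both of these time points. The change from 50 to 72 h was -0.78 ± 0.31 (interval -1.49 to -0.08, adjusted p 0.177), and from 34 to 72 h -0.67 ± 0.31 (interval -1.37 to 0.04, adjusted p 0.155). The summed level of 6 forebrain and eye markers was 0.867 to 1.54 TPM at 34 h, 3.54 to 3.97 at 42 h, 2.70 to 3.58 at 50 h and 0.864 to 1.21 at 72 h, with SIX6 listed at 0 at 34, 42 and 72 h. LHX2 was the 1 marker of these that passed the filter, with means of 0.481, 3.16, 2.79 and 0.742 TPM at 34, 42, 50 and 72 h. It was raised at 42 and 50 h against 34 h and lowered from 50 to 72 h. Each other forebrain and eye marker was at or below 0.644 TPM in every library, so the rise and fall is that of 1 gene. SIX3 was at 0.644 and 0.386 TPM at 34 h and lower at 50 h, at 0.287 and 0.105 TPM. The part of the forebrain and eye markers in the ALDH1A3 level was not tested.

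Summed over ALDH1A2 and ALDH1A3, the level was 1.12 and 1.71 TPM at 34 h, 2.36 and 2.82 at 42 h, 2.95 and 4.78 at 50 h, then 0.800 and 0.444 TPM at 72 h. The time points of highest ALDH1A and lowest CYP26 sums coincided. The CYP26 sum was 19.6 and 13.9 times the ALDH1A sum at 34 h, 1.91 and 2.78 times at 42 h, 1.02 and 1.45 times at 50 h, then 102 and 148 times at 72 h. These ratios describe transcripts within each library, were given no test, and rest at 34 and 72 h on ALDH1A levels near or below 1 TPM.

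**Figure D3:**
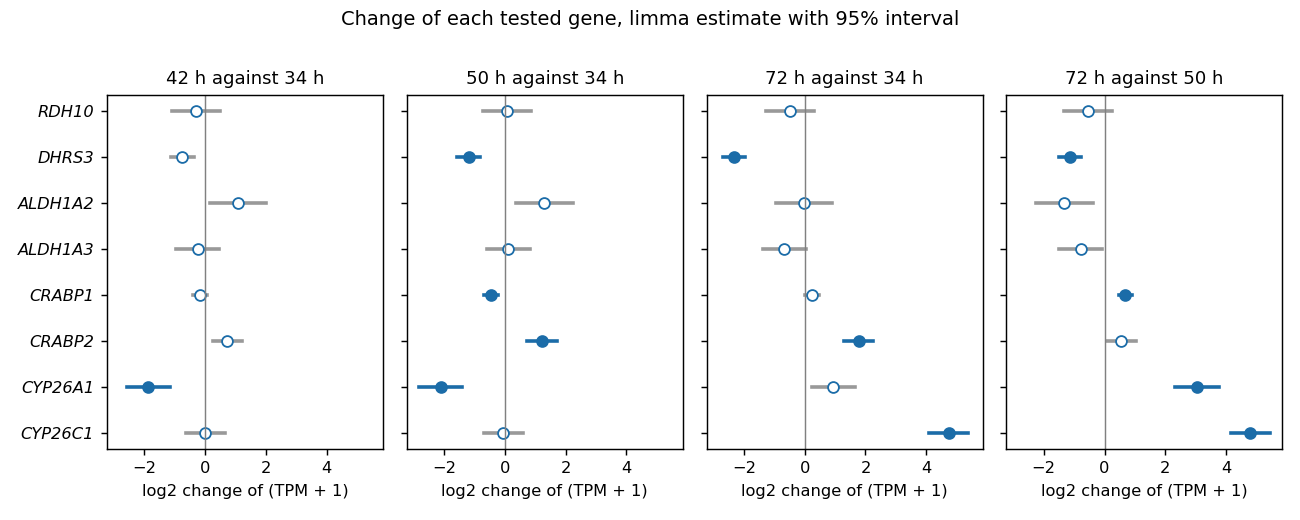
Change of the 8 tested genes on the log2(TPM + 1) scale (horizontal axis) in 4 of the 5 comparisons, as limma estimates (points) with 95% intervals for each gene alone (bars). Filled points have an adjusted p under 0.05. CYP26C1 and CYP26A1 are the farthest to the right from 50 to 72 h, and DHRS3 is the farthest to the left from 34 to 72 h.

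The carriers were the most abundant of the 9 genes and went different ways. CRABP2, which delivers retinoic acid to its receptors (chr1:156699606-156705816, minus strand), was at 284 and 209 TPM at 34 h, 476 and 348 at 42 h, 677 and 482 at 50 h, then 814 and 863 TPM at 72 h. Replicate 1 was the higher at 34, 42 and 50 h and the lower at 72 h. No time points overlapped, although 42 h replicate 1 lay just under 50 h replicate 2.

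CRABP2 had a mean of 246 ± 53.1 TPM at 34 h and of 838 ± 34.8 TPM at 72 h, a 3.40-fold rise. The log2 change was 1.78 ± 0.21 (limma adjusted p 0.000714), 1.52 in batch 1 and 2.04 in batch 2, and it was called under all 18 other settings and left-out libraries. At 50 h it was 1.23 ± 0.21 (adjusted p 0.0119), 1.25 in batch 1 and much the same in batch 2. This call was lost without 34 h replicate 2 (0.0901), without 50 h replicate 1 (0.0701), with those time points alone (0.0628) and with no filter (0.0519).

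By 42 h CRABP2 had changed by 0.74 ± 0.21, with 0.74 in batch 1 and 0.73 in batch 2. The adjusted p was 0.145 without the batch in the model and 0.0397 with it. From 42 to 50 h it was 0.49 (adjusted p 0.528) and from 50 to 72 h 0.55 ± 0.21 (adjusted p 0.166; 0.0571 with the batch). In the order of symbols by TPM, CRABP2 went from places 461 and 639 at 34 h to 160 and 157 at 72 h.

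CRABP1, which binds retinoic acid in the cytoplasm and is linked with its turnover (chr15:78340324-78348230, plus strand), dipped and recovered. It was at 279 and 277 TPM at 34 h, 256 and 241 at 42 h, 197 and 209 at 50 h, then 355 and 302 TPM at 72 h. The 4 time points did not overlap, with 50 h lowest and 72 h highest. The means were 278 ± 1.38, 249 ± 10.9, 203 ± 8.38 and 328 ± 37.8 TPM.

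CRABP1 rose from 50 to 72 h by 0.69 ± 0.10 in log2 units (limma adjusted p 0.00488), 0.85 in batch 1 and 0.53 in batch 2, a call lost with those time points alone (0.0532). Its fall from 34 to 50 h, -0.45 ± 0.10 with an adjusted p of 0.0303, was lost under 9 of 18 alternatives (adjusted p 0.0522 to 0.145), among them the loss of any 1 of the 34, 42 or 50 h libraries. Over all 18 the adjusted p ran from 0.0172 to 0.145. The 72 h level was not separated from the 34 h level (0.24, interval 0.02 to 0.46, adjusted p 0.111), nor 42 h from 34 h (-0.16, adjusted p 0.558), nor 50 h from 42 h (-0.29, adjusted p 0.398).

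As a result the balance of the carriers shifted. CRABP2 was 1.02 and 0.755 times CRABP1 at 34 h, 1.86 and 1.44 times at 42 h, 3.43 and 2.31 times at 50 h, then 2.29 and 2.86 times at 72 h. The 2 genes were near parity at 34 h, and CRABP2 was the higher in all 6 later libraries. Their summed level was 562 and 485 TPM at the start, against 1169 and 1165 TPM at 72 h.

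Over the 8 libraries, the Pearson r of log2(TPM + 1) between CYP26A1 and CRABP1 was 0.885, that between CYP26A1 and its neighbour CYP26C1 0.755, and that between CYP26A1 and DHRS3 -0.363. DHRS3 ran opposite to CRABP2 (-0.89) and to CYP26C1 (-0.85). These values describe 8 libraries that share 4 time points and 2 batches, and they carry no test.

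Among genes of retinoid uptake, storage and binding outside these 9, STRA6 was raised while LRAT and FABP5 were lowered by 72 h against 34 h. STRA6, the membrane receptor that takes up retinol, was at 24.4 and 23.0 TPM at 34 h, 37.5 and 37.3 at 42 h, 61.5 and 45.2 at 50 h, then 44.2 and 56.5 TPM at 72 h. Its rise to 72 h was 1.05 ± 0.17 (limma adjusted p 0.00336), called under all 18 alternatives, and its rise to 50 h was 1.12 ± 0.17 (0.00669; 0.0571 without 34 h replicate 2).

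LRAT, which esterifies retinol for storage, was at 6.90 and 6.53 TPM at 34 h, 5.36 and 5.52 at 42 h, 3.34 and 4.76 at 50 h, then 1.21 and 0.873 TPM at 72 h. From 34 to 72 h it fell by 1.92 on the log2 scale (adjusted p 0.000443), and no 2 time points overlapped. Its fall of 1.30 from 50 to 72 h (adjusted p 0.00857) was lost without 50 h replicate 2, without 72 h replicate 2 and with those time points alone.

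FABP5, a fatty acid binding protein that can also bind retinoic acid, was at 392 and 367 TPM at 34 h, 365 and 306 at 42 h, 293 and 316 at 50 h, then 161 and 165 TPM at 72 h, and it fell by 1.21 (adjusted p 0.000113) from 34 to 72 h. It was above both CRABP genes at 34 h and below both at 72 h.

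**Figure D4:**
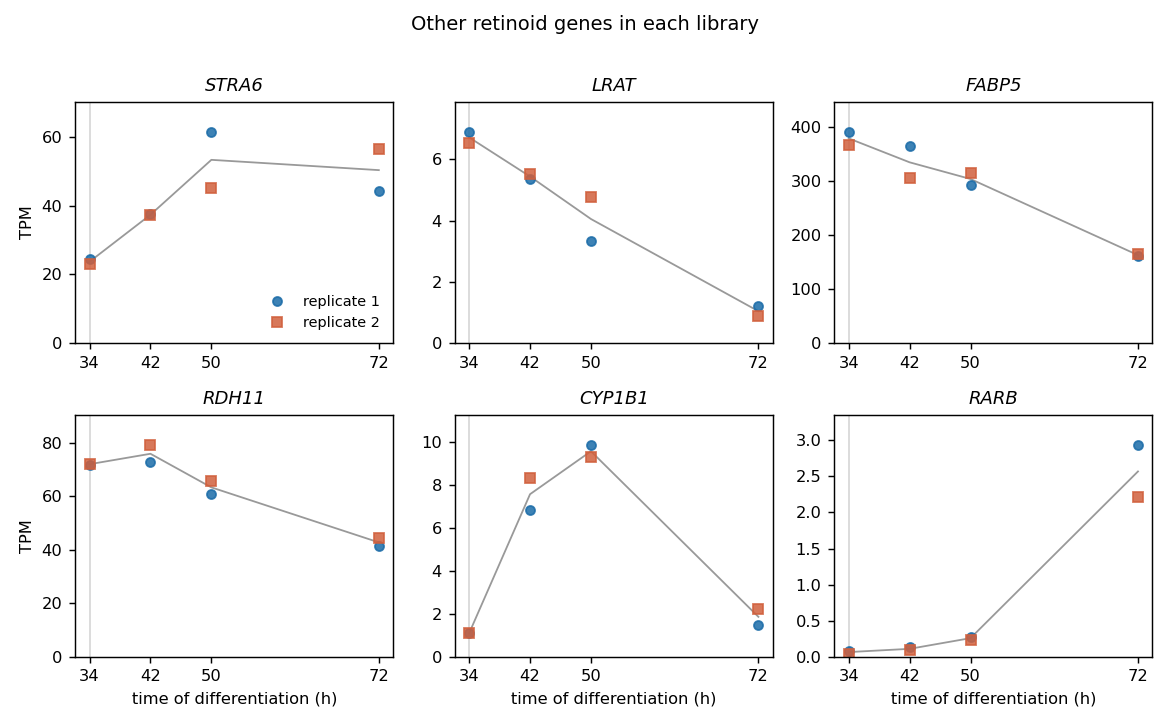
Level (TPM, vertical axis, from 0, scaled per gene) of 6 other retinoid genes against time of differentiation (h), with circles for replicate 1, squares for replicate 2, lines through the means of 2 libraries and a grey line at WNT3A addition. CYP1B1 is high at 42 and 50 h and low at 34 and 72 h, LRAT, FABP5 and RDH11 are lowest at 72 h, and RARB is highest there.

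Of 17 other enzymes that oxidise or reduce retinoids, 8 passed the filter. CYP1B1 was raised at 42 and 50 h against 34 h, none was lowered then, RDH11 was lowered at 72 h against 34 h, and both were lowered from 50 to 72 h. Over all tested genes 1.78% and 3.52% were raised at 42 and 50 h against 34 h, 11.3% were lowered at 72 h against 34 h, and 4.41% were lowered from 50 to 72 h. The median log2 changes of the 8 in that order were 0.03, -0.06, -0.20 and -0.08. CYP1B1, a cytochrome P450 able to oxidise retinol and retinaldehyde, was at 1.10 TPM in both libraries at 34 h, 6.83 and 8.29 TPM at 42 h, 9.82 and 9.29 TPM at 50 h, then 1.48 and 2.23 TPM at 72 h. The change was 2.02 ± 0.20 by 42 h (limma adjusted p 0.00149) and -1.90 ± 0.20 from 50 to 72 h (0.00143), both called under all 18 alternatives. RDH11, a retinaldehyde reductase, changed by -0.74 ± 0.10 from 34 to 72 h (adjusted p 0.00135). Its change from 50 to 72 h, -0.56 (adjusted p 0.0139), was lost without 50 h replicate 2, without either 72 h library and with those time points alone (0.0749). ALDH1A1, the remaining retinaldehyde dehydrogenase of the ALDH1A group, was at or below 0.363 TPM in all 8 libraries.

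All 6 retinoic acid receptor genes passed the filter. None was called at 42 h, RXRG was raised at 50 h, RARB, RXRA and RXRG were raised at 72 h against 34 h, RARB was raised from 50 to 72 h, and none was lowered in any comparison. Among all tested genes, 3.52% were raised at 50 h and 12.7% at 72 h against 34 h, and 2.92% from 50 to 72 h. A limma model that held the batch also called RARG against 34 h, where the adjusted p was 0.0459 in place of 0.0590 at 42 h and 0.0397 in place of 0.0514 at 72 h. RXRG at 50 h failed without 34 h replicate 2 or 50 h replicate 1, and RXRA at 72 h without 34 h replicate 2 or either 72 h library. RARB passed the filter only through the 72 h libraries, where it was high, and RXRG was below 1 TPM in both 34 h libraries, so the counts support no statement about the list. RARB, itself a well known retinoic acid target, was at 0.0870 and 0.0436 TPM at 34 h, 0.131 and 0.0896 at 42 h, 0.278 and 0.239 at 50 h, then 2.93 and 2.21 TPM at 72 h. Its change from 34 to 72 h was 1.74 ± 0.26 (adjusted p 0.00251), and the 72 h libraries stood apart from the other 6, as those of CYP26C1 did. The change from 50 to 72 h (1.5, adjusted p 0.0133) failed whenever 1 of the 4 libraries compared was left out, with an adjusted p of up to 0.105, and with a pseudocount of 0.1.

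Of 10 genes known in textbooks to respond to retinoic acid, 7 passed the filter, 6 of these were raised at 72 h against 34 h and none was lowered, beside 12.7% raised and 11.3% lowered among all tested genes. Several were at or near 0 at 34 h and passed the filter only where they were high, so the count supports no statement about the list. Its median log2 change, 2.91, is that of HOXB2, which was listed at 0 in both 34 h libraries, so it depends on the pseudocount. MEIS2 was at 2.11 and 3.25 TPM at 34 h, 18.7 and 14.7 at 42 h, 47.5 and 41.1 at 50 h, then 86.8 and 95.8 TPM at 72 h. It was raised by 2.27 ± 0.18 at 42 h (adjusted p 0.000546), where CYP26A1 was lowered. HOXB1, a hindbrain gene, was listed at 0 in the 34 h libraries and stood at 0.0548 and 0.197 TPM at 42 h, 0.688 and 0.434 TPM at 50 h, then 18.5 and 21.3 TPM at 72 h. It and CYP26C1 thus stood below 1 TPM in all 6 earlier libraries and at 18.5 TPM or more at 72 h.

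The tested genes most like each called gene over the 8 libraries were taken among 11539 candidates with a mean of at least 5 TPM at their highest time point. For CYP26A1 these were TXNIP (r = 0.97) and IFT46 (0.96), and for CYP26C1 CLEC10A (1.00) and HOXB2 (0.996). CLEC10A was listed at 0 in all 6 earlier libraries and was at 8.50 and 6.03 TPM at 72 h. DHRS3 was most like UNC5B and RPL22L1 (0.996 and 0.995), CRABP1 most like SLC15A3 and TNFAIP2 (0.969 and 0.962), and CRABP2 most like PCDHGC4 and NR6A1 (0.994 and 0.993). These r values were picked as the highest of 11539 over 8 libraries, so they are high by choice and carry no test. Likeness here leaves out the size of a change. Mean levels ran from 9.14 to 13.3 TPM for IFT46 and from 14.6 to 29.4 TPM for TXNIP, against 4.80 to 44.1 TPM for CYP26A1.

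The protein-coding genes on either side of the CYP26C1 and CYP26A1 pair were looked at after the values of the pair had been seen. EXOC6, an exocyst subunit, ends 1314 bases before CYP26C1 begins. It was at 6.14 and 6.84 TPM at 34 h, 7.28 and 8.85 at 42 h, 7.32 and 7.09 at 50 h, then 15.6 and 13.6 TPM at 72 h. EXOC6 was thus also highest at 72 h, by 1.06 ± 0.16 in log2 units against 34 h (limma adjusted p 0.00244). Against 50 h it was higher by 0.93 (adjusted p 0.0121), a call lost without any 1 of the 4 libraries compared and with those time points alone, up to 0.107. MYOF begins 228538 bases after CYP26A1 ends and was called in no comparison, with 2.28 to 3.22 TPM at 34 h and 1.49 to 1.55 TPM at 72 h.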

How the data were processed

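The authors deposited TPM values (length-corrected shares of all transcripts) for 37951 gene rows in 8 libraries of poly(A)-enriched RNA, sequenced from both ends per the labels' protocols. Salmon 1.9.0 and GRCh38 are named in the submitters' processing notes, and annotation, filters and strand setting are not given in the sources used here. TPM keeps no read depth. Rows were summed by symbol (35940 symbols). Genes reaching 1 TPM in 2 or more libraries (14908) were fitted on log2(TPM + 1) with limma 3.58.1 in R 4.3.3, with all 4 time points in 1 fit, 5 contrasts, Benjamini-Hochberg adjustment over all genes and a threshold of 0.05. The procedure was tested on simulated data. P-values rest on the spread between the 2 libraries of a time point, pooled over all 4 time points. This spread is also drawn by limma towards a trend over all tested genes, so it is not that of the compared libraries alone. The series describes the 2 libraries of a time point as independent biological replicates, with the replicate number also given as the batch.

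Because the labels give that number as the batch, it pairs the libraries. The differences between replicates correlated by 0.0949 to 0.195 among 34, 42 and 50 h, and by -0.104 to -0.0445 between 72 h and these. Alternatives were the pseudocount, the filter, rescaling, quantile normalization, the variance trend, the compared time points alone, the batch as a block, rows kept apart, mitochondrial genes left out, and each library left out. Those for other retinoid genes and for EXOC6 and MYOF were chosen after seeing the data.

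The 9 genes, the gene lists and the tests were chosen with earlier results of these data known. The text names these genes, genes of the lists that passed the filter, and, for each gene called, the 2 genes most like it; some listed genes are not reported here. Positions come from GENCODE release 29 and promoter windows from RefSeq (GRCh38.p14).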

Additional observations from a re-analysis of the deposited data

How the results depend on the processing

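Of 40 log2 changes (8 genes in 5 comparisons), 20 kept their direction and their side of the threshold under every alternative. No called change reversed, and ALDH1A2 and ALDH1A3 have no value at a mean of at least 5 TPM. The cause of the shifts below was not tested, beyond the smaller number of libraries where some were left out. All genes called at 42 h and 50 h against 34 h, 42 to 50 h and 50 to 72 h numbered 384, 933, 14 and 1093, and 171, 431, 0 and 367 with the compared time points alone (limma; 1089 genes had an unadjusted p under 0.05 where 0 were called). From 42 to 50 h the count was 8 with no filter, 24 at a mean of at least 5 TPM, 27 without a variance trend, 7 with the replicate block and 4 with rows apart. With 1 library left out, the counts were 161 to 372, 398 to 793, 1 to 8 and 316 to 911, and 1867 to 3629 against 3578 at 72 h against 34 h. Of the 8 genes, 1 was called at 42 h against 34 h, 0 with no filter, 2 at a mean of at least 5 TPM, after median rescaling, after quantile normalization and with the replicate block (which adds CRABP2), and 0 to 1 with a library left out. At 50 h against 34 h 4 were called, 2 with no filter, 2 with those time points alone and 1 to 4 with a library left out. From 50 to 72 h 4 were called, 2 with those time points alone and 3 to 5 with a library left out. Besides CRABP2 at 42 h, the replicate block changed the call of CYP26A1 at 72 h against 34 h and of no other of these genes. Uncalled changes near 0 crossed it: CYP26C1 at 42 h against 34 h (0.00, -0.044 by quantile normalization and -0.056 to 0.061 with a library left out), and ALDH1A2 at 72 h against 34 h (-0.02, 0.088 with a pseudocount of 0.1, 0.060 by quantile normalization and -0.27 to 0.23 with a library left out). With a library left out, the changes at 50 h against 34 h ran from -0.15 to 0.030 for CYP26C1, -0.21 to 0.45 for ALDH1A3 and -0.38 to 0.53 for RDH10. From 42 to 50 h they ran from -0.72 to 0.25 for CYP26A1, -0.15 to 0.028 for CYP26C1, -0.40 to 0.82 for ALDH1A2 and -0.084 to 0.83 for RDH10. Of 32 called changes of other retinoid genes and EXOC6, 21 were called under every alternative.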
